A study of Mus musculus with 6 samples.

Results

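The AF4/FMR2 family of mouse holds 4 genes, *Aff1*, *Aff2*, *Aff3* and *Aff4*, and all 4 were measured among the 25166 genes of an RNA-seq table of muscle stem cells (MuSCs). The set was taken by gene symbol, because *Aff2* is among the largest falls in the libraries labelled Sirt6mKO. *Aff1*, *Aff3* and *Aff4* came in as its paralogs and not for their own values. MuSCs are the PAX7-positive stem cells beneath the basal lamina of myofibers. They were isolated by FACS, with 100 to 200 cells sorted per sample, from male C57BL/6 mice of 12 weeks, and 1 library was sequenced from each of 3 Sirt6mKO and 3 control samples. In Sirt6mKO (Pax7-ICN Cre positive, *Sirt6* fl/fl) a constitutive Cre recombinase driven by the *Pax7* promoter removes exons 4 to 6 of *Sirt6* from the muscle lineage, which includes the myofibers around the MuSCs. The controls are wild type by their labels and Cre-negative *Sirt6* fl/fl in the supplementary legend, so that Cre itself and the loss of *Sirt6* cannot be told apart in this design. The paper's reporting summary also lists a *ROSA26*-YFP reporter in the breeding of Sirt6mKO mice. Its methods sort MuSCs either by surface markers, CD34 among them, or by a fluorescent reporter. Whether reporter or gate differed between the groups was not tested.

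AFF1 and AFF4 are scaffold proteins of the super elongation complex. There they bring P-TEFb, the kinase that releases paused RNA polymerase II, together with ELL-type elongation factors and with the chromatin readers ENL (*Mllt1*) and AF9 (*Mllt3*). AFF2, also called FMR2, and AFF3 can form related complexes. AFF2 is best known from the human FRAXE locus on the X chromosome, where a repeat expansion silences the gene in a form of intellectual disability, and AFF1 and AFF4 were found as fusion partners of KMT2A in leukaemia.

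The genes differ widely in build, although the encoded proteins have nearly the same length (coordinates from the GENCODE annotation of GRCm38). *Aff2* (ENSMUSG00000031189) lies on the plus strand of chromosome X from 69360294 to 69868037, a body of 507.7 kb. *Aff3* (ENSMUSG00000037138) lies on the minus strand of chromosome 1 from 38177326 to 38664955 and spans 487.6 kb. *Aff1* (ENSMUSG00000029313) lies on the plus strand of chromosome 5 from 103692374 to 103855322 and spans 162.9 kb. *Aff4* (ENSMUSG00000049470) is the most compact, on the plus strand of chromosome 11 from 53350833 to 53421830, a body of 71.0 kb. Exons made up 1.43% of the body of *Aff2*, 1.36% of *Aff3*, 5.8% of *Aff1* and 18.94% of *Aff4*. The longest annotated proteins had 1226 residues for AFF1, 1272 for AFF2, 1229 for AFF3 and 1160 for AFF4. Identity between them ran from 35.4% for AFF1 with AFF2 to 44.4% for AFF2 with AFF3. No pair of genes shared a stretch of 75 transcript bases, taken as the read length, so an exact read of that length could not belong to 2 of them. Shorter reads, which trimming can leave, were not checked.

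The bases before the annotated starts of *Aff2* and *Aff4* are shown because these genes have the largest and the smallest difference between the groups in the family. Both come from RefSeq on GRCm38.p6, plus strand, and are written 5′ to 3′. That of *Aff2* covers chrX:69360081-69360293 and that of *Aff4* chr11:53350517-53350766. For *Aff2* the last 37 bases before the RefSeq start were left out, since GENCODE already places them in the first exon. Capitals mark E-boxes (CANNTG, the core bound by helix-loop-helix factors, MYOD1 among them) and GC boxes (GGGCGG, the core bound by SP1-type factors), searched on both strands.
Aff2: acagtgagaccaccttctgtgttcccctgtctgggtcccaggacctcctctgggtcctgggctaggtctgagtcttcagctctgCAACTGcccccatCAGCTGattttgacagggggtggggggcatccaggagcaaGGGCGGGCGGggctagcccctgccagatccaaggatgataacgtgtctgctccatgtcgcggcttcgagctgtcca
Aff4: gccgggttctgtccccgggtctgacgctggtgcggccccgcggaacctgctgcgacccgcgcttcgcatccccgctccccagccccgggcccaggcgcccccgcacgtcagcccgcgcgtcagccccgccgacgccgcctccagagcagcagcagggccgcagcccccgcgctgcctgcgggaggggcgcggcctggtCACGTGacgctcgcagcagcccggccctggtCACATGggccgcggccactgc
The stretch of *Aff2* holds 2 E-boxes and 2 GC boxes that overlap each other, and that of *Aff4* holds 2 E-boxes. Over the whole 250 bases before the RefSeq start, *Aff2* had 7 CpG dinucleotides and a GC content of 61.2%, against 34 and 79.2% in *Aff4*. *Aff3* had 41 CpG dinucleotides and 82.0%, in a window that lies in an intron of the longer GENCODE models. The 2 RefSeq starts of *Aff1* gave 35 and 20, in windows that also lie inside the GENCODE body of the gene. Of 32817 such windows, 53.7% had fewer CpG dinucleotides than *Aff2*, whereas 98.9% had fewer than *Aff3*. None of the windows of the 4 genes held a match to AP-1 (TGANTCA), CRE (TGACGTCA), the TATA box (TATAAA) or the CCAAT box (CCAAT), which were found in 6.75%, 1.55%, 12.4% and 33.8% of all windows. E-boxes were found in 66.2% and GC boxes in 32.7%.

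Each deposited value is the number of reads on a gene divided by a size factor of its library and rounded, and is called signal here. The factors recovered from the values were 0.558 to 1.372, which puts 1267027 to 3209958 reads behind a library, and a single read weighs 0.729 to 1.792 in signal. All 4 genes were above the minimum mean signal of 5 used for testing, at which 14227 genes were fitted with limma-trend. Calls needed a change of at least 2-fold and an adjusted p (Benjamini-Hochberg) not above 0.05. By this rule 223 genes (1.57%) were higher and 145 (1.02%) lower in Sirt6mKO. *Sirt6* itself (chromosome 10, 81621785 to 81627797) had a mean signal of 17.33 ± 3.79 in the Sirt6mKO libraries and 18.33 ± 1.53 in control libraries (SD, n = 3 each). Its fitted log2 fold change was -0.10 (95% interval -0.73 to 0.54, limma-trend adjusted p = 0.91). With this wide interval at a low signal, and with only 3 of its exons deleted, the gene-level value of *Sirt6* does not check the labels.

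*Aff2* was close to the lower limit of the tested genes in Sirt6mKO MuSCs and clearly above it in control MuSCs. The signal was 5 in each of the 3 Sirt6mKO libraries, against 80, 90 and 70 in control replicates 1, 2 and 3. The groups were far apart, with the lowest control at 70. The Sirt6mKO mean was 5.0 ± 0.0 and the control mean 80.0 ± 10 (SD, n = 3 per group), and the fitted log2 fold change was -3.75 (standard error 0.26, 95% interval -4.31 to -3.18). *Aff2* was picked for this fall, so that the values describe it and no test is given. In the order of fitted fold changes it stood at place 2 from the bottom of the 14227 genes, between *Eps8l1* at -4.10 and *Gm11942* at -3.56. Because the samples are bulk RNA, fewer cells that express a gene and less of its RNA per cell cannot be told apart.

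The equal signal of 5 does not mean equal reads. With the size factors multiplied back, *Aff2* came to 6, 7 and 5 reads in Sirt6mKO replicates 1, 2 and 3, against 65, 123 and 39 in the controls. These read numbers are inferred from the recovered factors, and at a factor above 1 neighbouring numbers can round to the same signal. The pooled ratio of reads, corrected for the size factors, was 0.0604 with a 95% interval of 0.0352 to 0.0977. *Aff2* was thus 16.6-fold lower by reads, with an interval of 10.2 to 28.4 that covers counting error only. The fitted fold change corresponds to a ratio of 0.0745, nearer to 1 than the ratio of reads, since the added constant of 1 weighs on the low group.

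*Aff3*, the paralog closest to *Aff2* in protein sequence, was the least abundant of the family in the controls and also stood lower in Sirt6mKO, without passing the test. The Sirt6mKO libraries had signals of 6, 9 and 6, against 25, 15 and 14 in controls. Every Sirt6mKO library lay below every control library, a pattern seen in 1433 of the tested genes (10.1%), while 1586 (11.1%) showed the opposite one. The means were 7.0 ± 1.73 and 18 ± 6.08 (SD, n = 3 per group), and the log2 fold change was -1.22 (standard error 0.37, 95% interval -2.03 to -0.42, limma-trend adjusted p = 0.09). Behind these values are 7, 12 and 6 reads in Sirt6mKO, against 20, 21 and 8 in control libraries, with a scaled ratio of 0.389 (95% interval 0.23 to 0.642, counting error only). In the order of fitted fold changes *Aff3* stood at place 231.

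**Figure D1:**
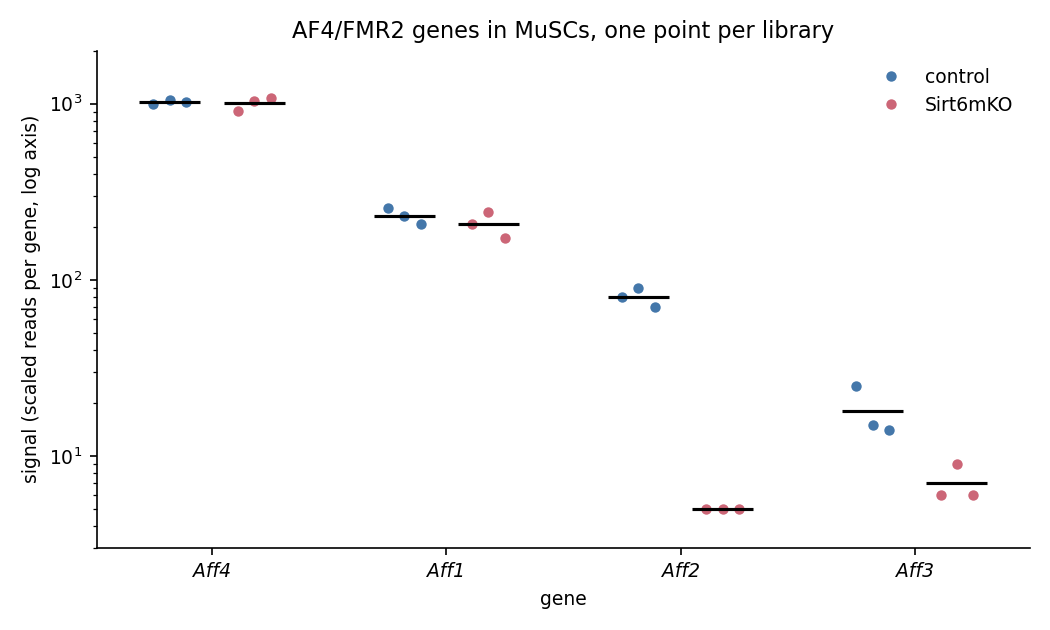
Signal (scaled reads per gene, log axis) of the 4 AF4/FMR2 genes, with 1 point per library, controls in blue, Sirt6mKO in red, and the group mean as a black line. The 3 Sirt6mKO points of *Aff2* sit at 5 and its controls at 70 to 90, the groups of *Aff3* are apart by a smaller gap, and those of *Aff1* and *Aff4* overlap.

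*Aff4*, the core scaffold of the super elongation complex and the most abundant member, had nearly the same level in both groups. Signals of 915, 1034 and 1077 in Sirt6mKO stood beside 1002, 1054 and 1018 in control libraries, so the control values lay within the range of the Sirt6mKO values. The fit for *Aff4* gave -0.03 on the log2 scale (limma-trend, standard error 0.11, adjusted p = 0.94), with a 95% interval of -0.25 to 0.20, in which no change of 2-fold lies. Behind it are 3626 reads in Sirt6mKO and 2829 in the controls, so that counting error was small here, with a scaled ratio of 0.976 (0.929 to 1.03).

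For *Aff1*, the other classical scaffold, the Sirt6mKO libraries gave 208, 244 and 173, and control libraries 255, 230 and 208. The groups overlapped, and replicate 3 was the lowest of each group. The fitted log2 fold change of *Aff1* was -0.16 (standard error 0.15, 95% interval -0.47 to 0.16, limma-trend adjusted p = 0.64). Of the 3 paralogs, none was called higher or lower, beside 1.57% and 1.02% of all tested genes, and all 3 fitted values were below 0, that of *Aff4* by less than its standard error and at 0.04 without Sirt6mKO replicate 1.

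**Figure D2:**
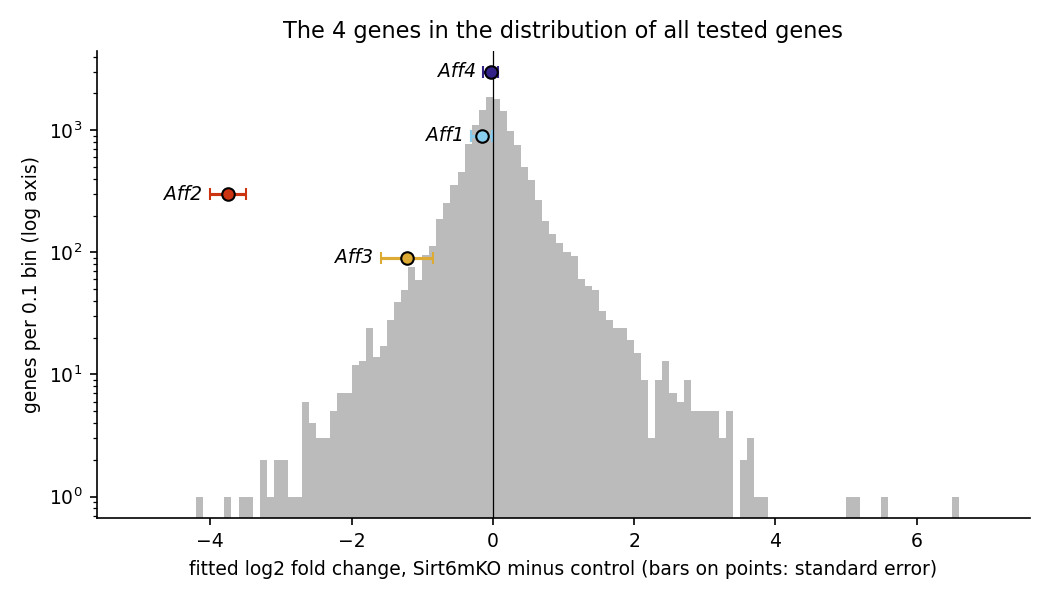
Histogram of the fitted log2 fold change (Sirt6mKO minus control) of all 14227 tested genes in bins of 0.1, with a log axis for the number of genes, and the 4 genes as points with their standard error (the height of a point carries no value). *Aff2* at -3.75 lies in the far left tail, *Aff3* at -1.22 on its flank, and *Aff1* and *Aff4* near the centre.

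Levels can be set against each other only per length, here as signal per kb of exon. In the controls the order was *Aff4* with 76.2 ± 1.98, *Aff1* with 24.4 ± 2.49, *Aff2* with 11.0 ± 1.38 and *Aff3* with 2.71 ± 0.914 (mean ± SD, n = 3 libraries), and no neighbours in this order overlapped. In Sirt6mKO it was *Aff4* with 75 ± 6.24, *Aff1* with 22.0 ± 3.75, *Aff3* with 1.05 ± 0.26 and *Aff2* with 0.688 ± 0.0. *Aff2* thus went from the third place to the last, with every Sirt6mKO library at 0.688 and *Aff3* at 0.902, 1.35 and 0.902. This exchange at the bottom rests on a few reads per library and on the annotated exon length. With the longest coding transcript as length, *Aff2* was at 1.11 and *Aff3* at 1.2, which leaves hardly any distance between them.

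The share of *Aff2* in the summed level of the family was 9.61 ± 0.885% in the controls and 0.699 ± 0.0479% in Sirt6mKO (mean ± SD, n = 3 per group). With *Aff2* taken out of the sum, the share of *Aff4* was 73.8 ± 2.64% in the controls and 76.5 ± 3.67% in Sirt6mKO, with overlap, and that of *Aff1* was 23.6 ± 1.83% and 22.5 ± 3.52%. The summed level per kb was 91.6, 105.0 and 100.0 in Sirt6mKO against 116, 117 and 109 in control libraries. That sum contains *Aff2*, which was picked for its fall. Without it the sums ran from 90.9 to 104.0 in Sirt6mKO and from 99.8 to 105.0 in the controls, and the groups overlapped. Among all tested genes with a known length, 40.4% had a lower level per kb than *Aff2* in the controls and 0.809% in Sirt6mKO. For *Aff4* these shares were 91.8% and 91.4%, for *Aff1* 66.2% and 62.5%, and for *Aff3* 10.1% and 1.94%.

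**Figure D3:**
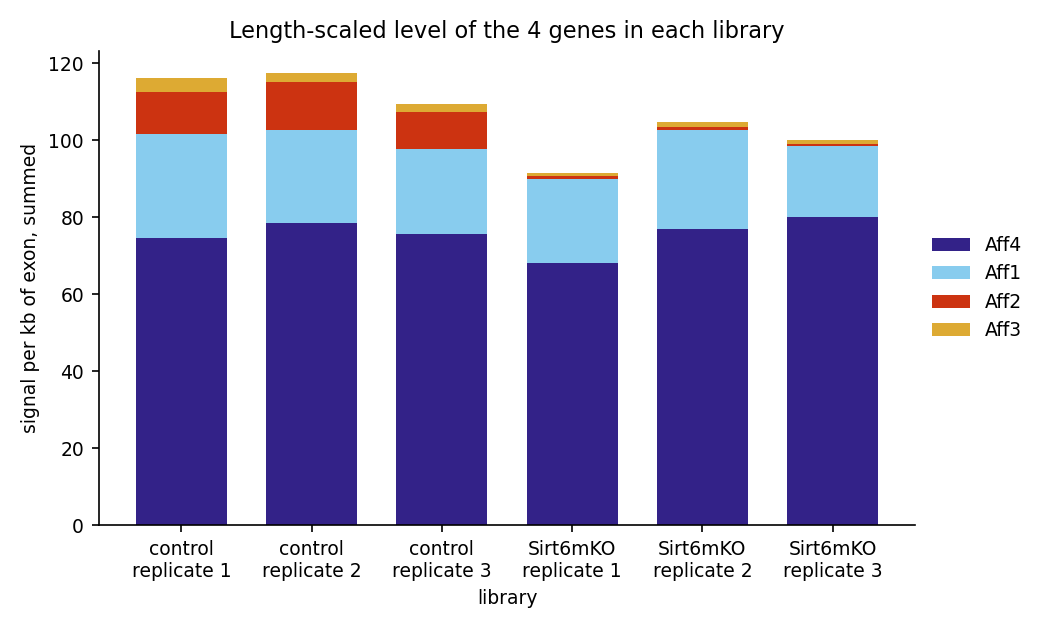
Signal per kb of exon of *Aff4*, *Aff1*, *Aff2* and *Aff3*, stacked for each of the 6 libraries. The red band of *Aff2*, 9.63 to 12.4 in the controls, shrinks to 0.688 in each Sirt6mKO library, while the band of *Aff4* keeps a height of 68.0 to 80.1 in all of them.

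The annotation around *Aff2* was searched for genes that could share its reads. *Gm14705*, an antisense gene from 69356596 to 69361269 on the minus strand, overlaps the first exon of *Aff2* by 48 exon bases. It is not among the 25166 genes measured, so no signal can be given for it. *Gm8172*, a processed pseudogene inside the body of *Aff2*, shares no exon base with it and had a signal of 3, 2 and 2 in Sirt6mKO against 2, 1 and 0 in control libraries, too low to test. *Gm16151*, an antisense gene within *Aff3*, had a signal of 0 in all libraries apart from 2 in control replicate 3. *Gm16150*, *Gm16152* and *Gm34727* also lie within *Aff3*, without shared exon bases, and are not among the genes measured. *Gm25930*, an snRNA gene, and *Mir6920* lie within *Aff4*, also without shared exon bases, and had signals between 0 and 5. Whether the strand of a read was used in counting is not given in the sources used here, and so it is not known how reads over the bases shared by *Gm14705* and *Aff2* were treated.

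The nearest tested neighbour of *Aff2* was not called. Within 500 kb of *Aff2* the table holds 2 genes, and 1 of them was tested, *Ids*, the lysosomal enzyme iduronate 2-sulfatase. It lies 475 kb away and gave 246, 260 and 262 in Sirt6mKO against 208, 206 and 161 in control libraries, with every Sirt6mKO library above every control library. The fitted log2 fold change of *Ids* was 0.42 (standard error 0.13, adjusted p = 0.096 from limma-trend). Around all 4 genes 62 genes lie within this distance, of which 33 were tested, with 1 called higher (3.03%) and 0 lower, beside 1.57% and 1.02% of all tested genes. At an unadjusted p under 0.05 in limma-trend, 4 of the 33 (12.1%) were above and 0 below 0, beside 18.1% of all tested genes in either direction, and limma voom on the reads called 1 higher and 0 lower.

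The gene called near the family was *Sparcl1*, which encodes a secreted matrix glycoprotein and lies 224 kb from *Aff1*. Signals were 168, 227 and 243 in Sirt6mKO against 63, 48 and 22 in control libraries, without overlap (log2 fold change 2.34, standard error 0.30, limma-trend adjusted p = 0.0011). The other tested neighbours of *Aff1* were *Mapk10*, *Ptpn13*, *Slc10a6*, *Klhl8*, *Hsd17b13*, *Hsd17b11*, *Nudt9* and *Dmp1*, from -0.27 for *Ptpn13* to 1.33 for *Hsd17b13*. Around *Aff3* the log2 fold changes of the 12 tested neighbours lay between -0.19 for *Tsga10* and 0.63 for *Lipt1*, all above that of *Aff3*. They also hold *Mitd1*, *Mrpl30*, *Txndc9*, *Eif5b*, *Rev1*, *Chst10*, *Pdcl3*, *Gm37062*, *Gm37309* and *Gm37821*. Around *Aff4* the 11 tested neighbours lay between -0.31 for *Zcchc10* and *Irf1* and 0.25 for *Kif3a*. The others there were *Hspa4*, *Uqcrq*, *Gdf9*, *Septin8*, *Rad50*, *Gm17334*, *Gm12216* and *Slc22a5*.

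**Figure D4:**
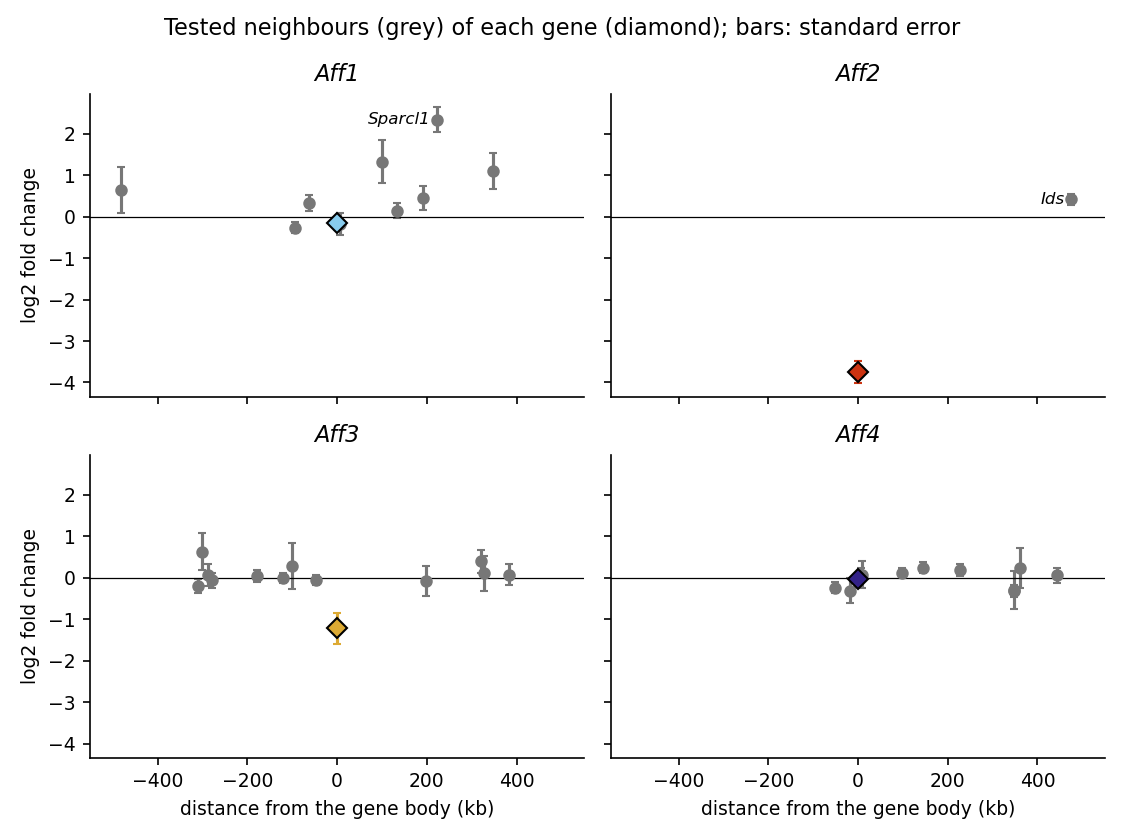
Log2 fold change (Sirt6mKO minus control, bars for the standard error) of tested genes within 500 kb, in grey, against their distance in kb from the body of *Aff1*, *Aff2*, *Aff3* or *Aff4*, the diamond of each panel. *Ids*, the single tested neighbour of *Aff2*, stands at 0.42 against -3.75 for *Aff2*, and *Sparcl1* at 2.34 is the one called neighbour.

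*Aff2* and *Aff3* are both very long genes. Of the tested genes, 176 have a body of at least 400 kb. Without *Aff2* and *Aff3*, 9 of 174 (5.17%) were called lower and 8 (4.6%) higher, beside 1.02% and 1.57% of all tested genes. Their median log2 fold change was -0.13 against 0.00 over all genes. Every Sirt6mKO library lay below every control library in 46 of these 174 (26.4%) and above in 13 (7.47%), beside 10.1% and 11.1% of all tested genes. *Aff2* had the lowest value of the 176, followed by *Pcdh15* at -3.04. Of the 457 tested genes of the X chromosome, *Aff2* among them, 8 (1.75%) were called higher, beside 1.57% of all tested genes, with a median of 0.06. The count called lower is not given, since it would hold *Aff2*, which was picked for its fall. The long genes are named as a list because of the length of *Aff2*, and no test was made of it.

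Among the partners with which AFF proteins assemble and other elongation genes, *Ell2* was the single gene called. The list held 43 genes, of which 41 were tested, and 1 was called higher (2.44%) and 0 lower, near the 1.57% and 1.02% of all tested genes. The median log2 fold change was -0.04, against 0.00 over all genes, and 20 genes were above and 21 below 0. At an unadjusted p under 0.05 in limma-trend there were 3 (7.32%, beside 18.1% of all tested genes), *Ell2* above 0 and *Dot1l* and *Mllt10* below it, and limma voom also called 1 higher and 0 lower. *Ell3* and *Eaf2* were too low to test, with at most 2 and 6 in any library.

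For P-TEFb, the kinase gene *Cdk9* gave 87, 108 and 101 in Sirt6mKO against 105, 102 and 113 in control libraries, with a fitted log2 difference of -0.12 (standard error 0.15). The cyclin genes *Ccnt1* and *Ccnt2* had -0.07 and -0.05. All 3 overlapped between the groups. Of the super elongation complex partners, *Ell* had a log2 fold change of 0.20, *Eaf1*, an ELL-associated factor, -0.04, *Mllt1* 0.16 and *Mllt3* -0.15, and none was called. *Rn7sk*, the RNA that holds P-TEFb in its inactive form, gave 3164, 2823 and 3791 in Sirt6mKO against 4331, 3081 and 4729 in control libraries (log2 fold change -0.30, limma-trend adjusted p = 0.38).

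*Ell2*, an elongation factor that works in the same complex as AFF1 and AFF4, rose. Signals were 99, 115 and 107 in Sirt6mKO against 63, 26 and 39 in control libraries, without overlap (log2 fold change 1.39, standard error 0.26, limma-trend adjusted p = 0.0095). This call was lost without Sirt6mKO replicate 1 (1.45, limma-trend adjusted p = 0.055) and without Sirt6mKO replicate 2 (1.34, limma-trend adjusted p = 0.067). On the DOT1L side, *Dot1l*, the histone H3 lysine methyltransferase that binds AF9 and AF10, had -0.41 (limma-trend adjusted p = 0.15) and *Mllt10*, which encodes AF10, -0.31 (limma-trend adjusted p = 0.26). The lowest value of the list was -0.46, for *Supt4a*, a subunit of the pausing factor DSIF.

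**Figure D5:**
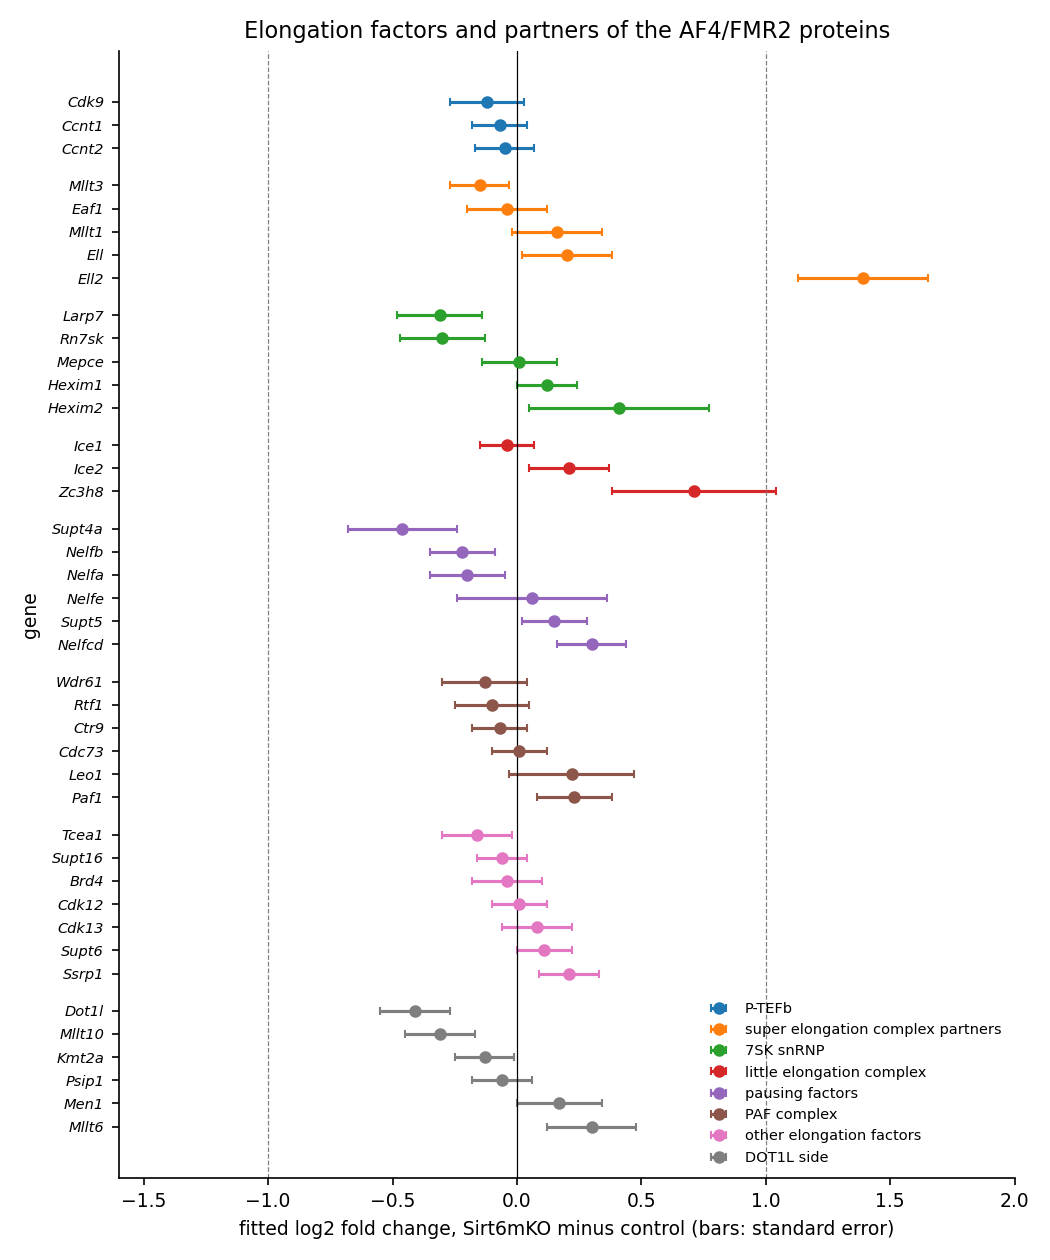
Fitted log2 fold change (Sirt6mKO minus control) with standard error for the 41 tested elongation genes, grouped by complex, with dashed lines at a 2-fold change. *Ell2* at 1.39 is the single gene beyond a dashed line, and the values of P-TEFb lie between -0.12 and -0.05.

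Genes whose signal followed each member over the 6 libraries were named by Pearson's r of log2(signal + 1), as a description without a test, since the libraries share their groups and *Aff2* was chosen for its group difference. Those most like *Aff2* were *Cyth1* (r = 0.998), an exchange factor for ARF proteins, *Pcdhb12* (0.996), a clustered protocadherin, and *Ctnnal1* (0.992), an alpha-catenin-like protein. All 3 were at about the same level in the 3 Sirt6mKO libraries, as *Aff2* was, for example *Cyth1* with 67, 62 and 68 against 152, 157 and 147 in the controls. In all, 442 tested genes had an r above 0.9 with *Aff2*, 265 with *Aff3*, 133 with *Aff1* and 67 with *Aff4*. Those most like *Aff3* were *Hoxa6* (0.990), *Aldh4a1* (0.989) and *Pax7* (0.988), those most like *Aff1* were *Tnrc6c* (0.997), *Tet3* (0.991) and *Ahdc1* (0.986), and those most like *Aff4* were *Gadl1* (0.995), *Inpp5f* (0.978) and *Chrnb2* (0.977). The signal of *Gadl1* was only 1 to 8 and that of *Chrnb2* 3 to 6 over the libraries, so that their r rests on a few reads. Among the members themselves r was 0.90 for *Aff2* with *Aff3*, 0.70 for *Aff1* with *Aff3* and 0.44 for *Aff1* with *Aff2*, and between -0.17 and 0.18 for the pairs with *Aff4*.

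The makeup of the sorted cells was read from marker genes. All 10 MuSC markers were in the table, and their summed signal was 13564 to 14079 in Sirt6mKO and 14964 to 16043 in the controls, without overlap. Without *Pax7* it was 11729 to 11772 and 11814 to 12422, a much smaller gap. *Pax7*, which defines MuSCs and drives the Cre, was at 1841, 2307 and 1810 against 4066, 3449 and 3150 (log2 fold change -0.84, limma-trend adjusted p = 0.0041). *Cd34*, a surface marker of a sorting gate in the paper's methods, differed in the other direction (log2 fold change 0.60, limma-trend adjusted p = 0.031). The other 8 lay between -0.30 and 0.14 without passing the adjusted p. By comparison, the 8 myofiber markers summed to 962 to 2233 and 635 to 812. The 7 fibroblast markers, mostly *Col3a1*, summed to 8680 to 10397 and 6488 to 10045. The 6 tested fibroblast markers had log2 fold changes from 0.06 for *Col3a1* to 2.16 for *Pdgfra*. The 4 tenocyte markers summed to 46 to 537 and 34 to 55. The 5 mural markers, mostly *Notch3*, summed to 3742 to 4968 and 2165 to 3326. Endothelial markers, 4 of 5 in the table, summed to 373 to 450 and 466 to 571, nearly all of it *Tek*, without which the sums were 24 to 38 and 9 to 38. Markers of committed myogenic cells summed to 250 to 332 and 277 to 432, but moved in both directions. *Myod1* was at 79, 80 and 75 against 93, 184 and 169 (log2 fold change -0.86, limma-trend adjusted p = 0.045) and was not called. *Myog* and *Mymk* had -1.35 and -1.21 and *Ckm* had 1.71, without passing the adjusted p. Immune markers, 4 of 6 in the table, summed to 42 to 82 and 43 to 76, and Schwann and glial markers to 24 to 66 and 42 to 73. The neuronal markers, 2 of 4 in the table, summed to 6 to 10 and 1 to 18. *Snap25* was at 0 in all libraries apart from 4 in control replicate 3, and *Tubb3* made up the rest. Called higher among the markers were *Acta1*, the skeletal muscle actin (1 of 8 tested myofiber markers), and the fibroblast genes *Pdgfra* and *Col1a1* (2 of 6 tested). Over all tested genes 1.57% were called higher. *Col1a1* overlapped between the groups, with 420, 1063 and 645 in Sirt6mKO against 487, 128 and 81 in control libraries (limma-trend adjusted p = 0.047). *Pdgfra* was low, at 14, 22 and 38 against 9, 4 and 2. The sums did not overlap between the groups for MuSCs, myofibers, mural and endothelial cells. For endothelial cells this held only with *Tek* included. In Sirt6mKO replicate 3 the myofiber sum was 962, of which *Ttn* made up 657. The controls had sums of 750, 635 and 812, with 451, 321 and 518 from *Ttn*. *Acta1*, *Myh4* and *Ttn* were apart between the groups, and the other myofiber markers each overlapped. Of the mural markers, *Notch3* alone was apart between the groups, and *Rgs5*, *Pdgfrb*, *Myh11* and *Kcnj8* each overlapped. The part of these shifts in the levels of *Aff2* and *Aff3* was not tested.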

How the data were processed

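The libraries, 3 labelled Sirt6mKO and 3 control, hold RNA of sorted MuSCs and were grouped by their labels. The paper's methods name RiboMinus depletion and an Ion kit, the labels RiboGone depletion and a SMARTer Stranded kit. Per the labels, the submitters' processing notes name Trimmomatic 0.39, STAR 2.7.10a, Picard 2.25.5, featureCounts 2.0.2 and DESeq2 1.30.1. By the methods, reads on several genes or regions were left out. The table gives no unit. The deposited values, called signal, are whole numbers that the authors obtained by scaling each library and rounding, as the gaps between the values show: of the values from 1 to 60, 11 are missing in control replicate 1 and 27 in control replicate 3. Size factors were recovered per library from these gaps and from the distribution of values, without the group labels, and reads are signal times factor. The labels do not say whether the samples came from separate mice, while the paper's methods speak of biological replicates for RNA-seq in general. The p-values weigh a group difference against the spread between these samples, which may be technical in part. Replicates differed by more than sampling noise.

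Values of log2(signal + 1) from all 6 libraries entered a limma-trend fit (limma 3.58.1, R 4.3.3), restricted to a mean signal of 5 or more, without covariates, with Benjamini-Hochberg adjustment over all tested genes. Exact permutation tests cannot go below 0.1 with 3 libraries per group and were not used. Intervals of read ratios are exact at 95% and cover counting error only. Gene bodies and lengths came from GENCODE for GRCm38, which held 99.73% of the identifiers, with matching ends for 99.18% of those held. Protein identity was computed with Biopython 1.88 from translated GENCODE transcripts.

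The members, the lists of elongation genes, markers, long genes and neighbours, and the rules for naming were chosen with earlier results of these data known. Named were the members, the P-TEFb and super elongation complex genes, *Rn7sk*, every called gene of the list, neighbours within 500 kb with a mean signal of 5 or more or overlapping a member, the 3 genes most like each member, and *Sirt6*. *Dot1l*, *Mllt10*, *Supt4a*, *Pcdh15*, *Eps8l1*, *Gm11942*, *Notch3*, *Cd34*, *Tek*, *Snap25*, *Tubb3*, *Myod1*, *Myog*, *Mymk* and *Ckm* were named after their values were seen. So were the mural markers *Rgs5*, *Pdgfrb*, *Myh11* and *Kcnj8*, the myofiber markers *Acta1*, *Myh4* and *Ttn*, and the fibroblast markers *Pdgfra*, *Col1a1* and *Col3a1*. Alternatives were other scalings (median ratios, upper quartile, total), pseudocounts of 0.1 and 5, no filter or a mean of at least 50, limma voom on the recovered reads, the replicate number as a block, and leaving out each library.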

Additional observations from a re-analysis of the deposited data

How the results depend on the processing

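The fitted log2 fold change of *Aff2* was -3.97 with a pseudocount of 0.1, -3.08 with a pseudocount of 5 and -3.94 with limma voom on the recovered reads, and -3.84 to -3.66 with 1 library left out in turn. With a mean signal of at least 50, *Aff2* and *Aff3* were no longer tested. *Aff3* ran from -1.40 to -0.92 over its alternatives, with limma adjusted p between 0.075 and 0.25, and so passed the threshold in none of them. *Aff1* ran from -0.28 to -0.03. *Aff4* was at 0.04 without Sirt6mKO replicate 1, in a range of -0.07 to 0.04. With 1 library left out, *Ccnt2* ran from -0.13 to 0.04 and was above 0 without control replicate 3, *Eaf1* from -0.12 to 0.07, above 0 without control replicate 2, and *Sirt6* from -0.21 to 0.09, above 0 without Sirt6mKO replicate 3. The cause of these turns was not tested.

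The counts of called genes over the whole table were 76 higher and 52 lower with a mean signal of at least 50, where fewer genes were tested. With 1 library left out they ran from 97 to 291 higher and from 84 to 152 lower. The lowest counts of higher genes were those without Sirt6mKO replicate 2 (97) and replicate 1 (101), and lower genes numbered 84 without Sirt6mKO replicate 1, 96 without replicate 2 and 90 without control replicate 2. Of the elongation genes, 0 to 1 were higher with 1 library left out, and 0 were lower in any alternative.

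Whether the replicate numbers of the labels pair the samples cannot be decided from 3 samples per group. The deviations of same-numbered samples correlated by 0.023, 0.066 and 0.188, and those of the other pairs by -0.129 to 0.073. Not every sample correlated best with its own number. With the replicate block, limma gave 268 higher and 167 lower genes, and *Aff2* was at -3.75 and *Aff3* at -1.22 (adjusted p = 0.096). Depth limits the low genes: *Aff2* in Sirt6mKO rests on 5 to 7 reads per library and *Aff3* on 6 to 12, so that differences between these libraries could not be resolved.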
